A study of Mus musculus with 7 samples.

Results

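The genes described here were close to silent in wild-type LSK cells of the mouse fetal liver and were measured above 0.5 FPKM in every library from LSK cells without Uhrf1. FPKM is a count of read fragments scaled to the length of the transcript and to the depth of the library. A row of the deposited table was taken when the highest of its 3 wild-type LSK values was at most 0.5 FPKM and the lowest of its 3 Uhrf1-/- LSK values was above 0.5 FPKM. The eosinophil ribonuclease gene Ear2 met this rule and was left out, as the definition of the set asks, which gave 39 genes of 22680 rows. The rule used all 6 LSK libraries, so the difference between the genotypes chose these genes and is described without a test.

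RNA sequencing was done on blood-forming cells sorted from C57BL/6 fetal livers at 13.5 d.p.c. (days post coitum). LSK cells carry Sca-1 and c-Kit, lack lineage markers and hold the stem cells and multipotent progenitors. LK cells, labelled HPC, hold progenitors further along in differentiation. The groups were wild-type LSK (3 libraries), Uhrf1-/- LSK (3 libraries) and wild-type LK (1 library), and the LSK cells were sorted in 2 rounds, per the labels. The labels name neither the construct behind the Uhrf1-/- genotype nor the animals behind each library, so the spread between libraries may be partly technical.

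UHRF1 binds hemimethylated DNA behind the replication fork and recruits DNMT1, which copies the methyl mark to the new strand. Methylation of promoters is a textbook means of keeping germline genes, endogenous retroviruses and some imprinted alleles silent in somatic cells. Loss of that mark is known to switch on a restricted group of testis genes, and transcripts from retroviruses can set off the interferon response in cells treated with inhibitors of DNA methylation. Methylation was not measured in the data used here.

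Uhrf1 itself measured 63.0, 66.8 and 112.8 FPKM in wild-type LSK cells, 10.2, 8.78 and 18.6 FPKM in Uhrf1-/- cells and 115.9 FPKM in LK cells, so the levels went with the labels. Sca-1 (Ly6a) was between 26.4 and 96.4 FPKM across LSK cells and 0.321 FPKM among LK cells, and Kit was between 24.4 and 56.6 FPKM in all 7 libraries. Some other markers of LSK cells differed between the genotypes, in either direction. Flt3 was between 49.8 and 101.9 FPKM in wild-type LSK and between 10.6 and 29.1 FPKM in Uhrf1-/- LSK cells. Slamf1 was between 0.547 and 1.17 FPKM in wild-type LSK and between 3.55 and 5.18 FPKM in Uhrf1-/- LSK cells. The lineage markers Cd3e and Ms4a1 were at or near 0, with at most 0.0545 FPKM. Library sums of the deposited count values ran from 15556959 to 21017402. FPKM summed to 570509 in wild-type LSK replicate 2 and to between 851271 and 1128572 in the other 6 libraries, while factors from medians of gene ratios lay between 0.964 and 1.06.

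The set was no larger than its mirror image. Of 10403 rows with a highest wild-type LSK value of at most 0.5 FPKM, 39 (0.375%) were above 0.5 FPKM in all Uhrf1-/- libraries. Of 10496 rows with a highest Uhrf1-/- value of at most 0.5 FPKM, 43 (0.41%) were above 0.5 FPKM in all wild-type LSK libraries. The reverse set was the larger in 12 of 13 settings of the limit, the scaling and the libraries used, and the order turned to 46 against 40 rows after median-of-ratios scaling between libraries. Over the 16724 rows above 0 in any LSK library, the ranges of the genotypes did not overlap in 704 (4.21%) with Uhrf1-/- higher and in 1007 (6.02%) with Uhrf1-/- lower. Leaving out any 1 of the 6 LSK libraries loosens the rule and gave between 54 and 71 rows in the set and between 68 and 84 in the reverse set.

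Both sets held 3 rows that were listed at 0 in the whole low group. In the set described here these were Sva, Tuba3a and Tuba3b, and in the reverse set Klrd1, Mycl and Scarna13. Klrd1, a natural killer receptor gene, measured 1.57, 1.94 and 2.35 FPKM in wild-type LSK cells, was listed at 0 in all 3 Uhrf1-/- libraries and stood at 0.193 FPKM in LK cells. The highest mean was 2.82 FPKM here, for Sva, and 2.76 FPKM in the reverse set, for the interleukin-7 receptor gene Il7r. The means on the high side had a median of 1.20 FPKM here and 0.916 FPKM in the reverse set. A gap of at least 4-fold between the lowest high and the highest low value was seen in 14 of 39 genes here and in 9 of 43 rows of the reverse set. Il7r measured 2.29, 1.43 and 4.56 FPKM in wild-type LSK cells against at most 0.371 FPKM in Uhrf1-/- cells, with 1.05 FPKM in LK cells. The next highest of the reverse set were Stc1, Pira2, Scarna13 and Klrd1, with lowest wild-type values of 2.19, 1.14, 0.501 and 1.57 FPKM. These levels are low, and they follow from the limit that chose the rows.

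**Figure D1:**
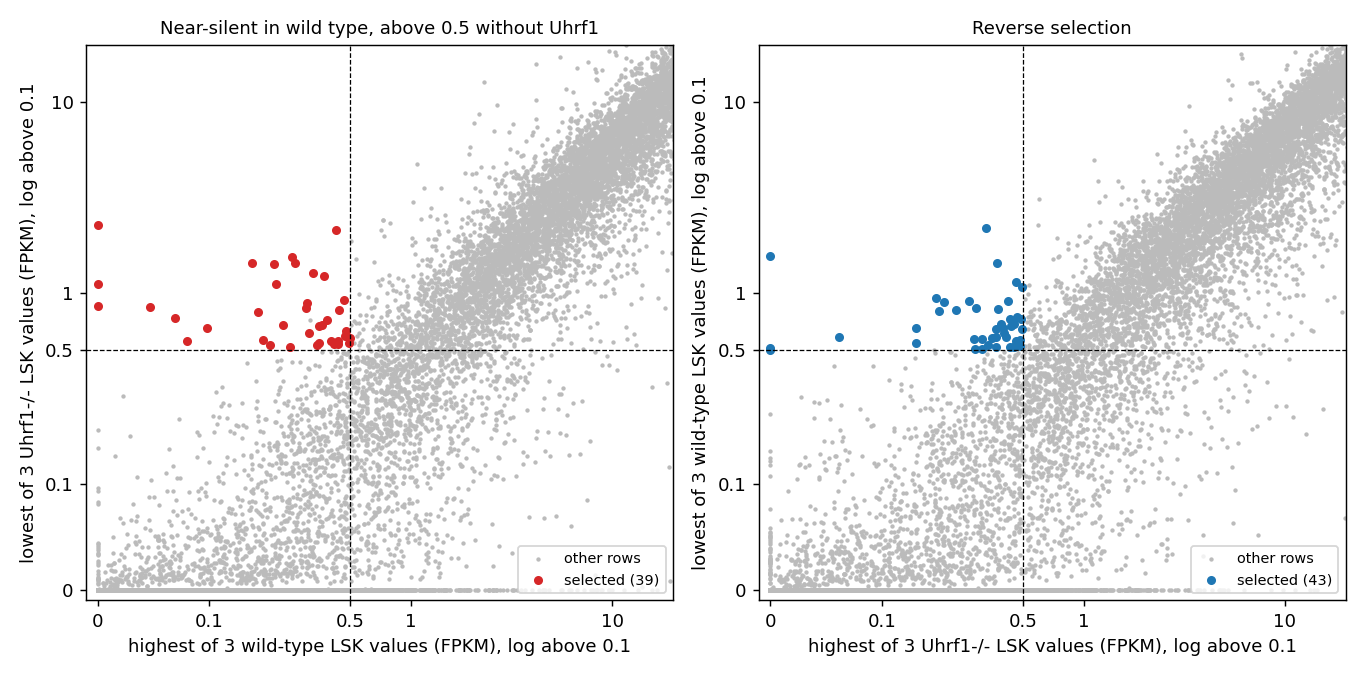
Each point is 1 row of the table, placed by the highest value in one genotype (x axis, FPKM) and the lowest value in the other (y axis, FPKM), on axes that are linear below 0.1 and logarithmic above. The dashed lines mark 0.5 FPKM: the 39 red rows on the left and the 43 blue rows of the reverse selection on the right fill the same corner in similar numbers, and 3 rows of each sit at 0 on the x axis.

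The limit cut through a continuous cloud of genes. Just inside it, Gm15133, Xylt1 and Gm13277 had the lowest Uhrf1-/- values, at 0.520, 0.533 and 0.536 FPKM. A230020J21Rik, Tsku and Igsf23 had the highest wild-type values, at 0.499, 0.493 and 0.477 FPKM. Just outside, Cngb1, Alox12 and 2010107G12Rik missed the rule with lowest Uhrf1-/- values of 0.491, 0.489 and 0.488 FPKM. Dmc1, Ehd3 and Mxra8 missed it with highest wild-type values of 0.503, 0.503 and 0.506 FPKM. Dmc1, a recombinase gene of meiosis, had wild-type values of 0.290, 0.503 and 0.228 FPKM and Uhrf1-/- values of 1.02, 0.698 and 0.679 FPKM, so its genotypes did not overlap either.

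Sva had the highest mean of the set. It encodes seminal vesicle antigen, a secreted protein of the male reproductive tract, and lies at 42038394 to 42042851 of chromosome 6 (GRCm38). All 4 wild-type libraries listed it at 0, and Uhrf1-/- replicates 1, 2 and 3 had 3.31, 2.87 and 2.27 FPKM (mean 2.82 ± 0.519, SD, n = 3). These levels rest on deposited count values of 53.5, 47.1 and 40.7. All 3 Uhrf1-/- libraries were high and every other library was at 0, and relative to their mean the 3 high values lay closer together than those of most members. Its relatives Sval1 and Sval3, which lie 82.3 and 65.3 kb away, were listed at 0 in all 7 libraries. None of its 602 windows of 50 bases was found in a transcript of another gene.

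The 250 bases before the start of Sva are shown because they hold no CpG, the dinucleotide that UHRF1 and DNMT1 act on. The promoter of Trap1a, another gene of the set with hardly any wild-type signal, is set beside it with each CpG in capitals. Both were read 5′ to 3′ on the plus strand of GRCm38.p6 from RefSeq, at chr6:42038144-42038393 and chrX:139333433-139333682.
Sva: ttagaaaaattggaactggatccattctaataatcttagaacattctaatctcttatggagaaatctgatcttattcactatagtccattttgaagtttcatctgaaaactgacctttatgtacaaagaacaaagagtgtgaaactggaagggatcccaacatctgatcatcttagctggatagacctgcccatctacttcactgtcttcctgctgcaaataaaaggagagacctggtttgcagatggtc
Trap1a: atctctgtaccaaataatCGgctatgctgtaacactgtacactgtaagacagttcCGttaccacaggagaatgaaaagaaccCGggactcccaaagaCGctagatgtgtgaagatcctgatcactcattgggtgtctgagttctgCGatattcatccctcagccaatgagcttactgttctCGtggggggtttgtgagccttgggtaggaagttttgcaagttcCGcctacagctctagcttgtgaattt
In the 300 bases from 250 before to 50 after the start, Sva had 0 CpG and Trap1a had 8.

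Genes known from germ cells and testis formed a group of 5: Tuba3a, Tuba3b, Gtsf1, Trap1a and 4930415F15Rik. Their mean in Uhrf1-/- LSK cells ran from 1.19 to 1.89 FPKM. Tuba3a, an alpha-tubulin gene of the testis, was listed at 0 in every wild-type library, LK included, and measured 1.85, 0.855 and 1.10 FPKM without Uhrf1. Tuba3b, a second testis alpha-tubulin gene, was listed at 0 in wild-type LSK cells, at 1.25, 1.11 and 1.61 FPKM in Uhrf1-/- cells and at 0.0379 FPKM in LK cells. Both were thus at or near 0 in all 4 wild-type libraries and present in all 3 Uhrf1-/- libraries. The copies lie apart on chromosome 6, at 125278270 to 125286081 and 145615963 to 145621477. Of their 50-base windows, 35.3% for Tuba3a and 29.5% for Tuba3b also occur in other genes, mostly in each other, so the division of reads between the pair is uncertain.

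The promoters of the tubulin pair are shown because the 2 genes behaved alike and share a stretch upstream of the start. Capitals mark TTCCCGC, the letters searched on both strands as a core of E2F binding sites. The Tuba3a window is chr6:125286082-125286331 on the minus strand and the Tuba3b window is chr6:145615713-145615962 on the plus strand (GRCm38.p6, RefSeq).
Tuba3a: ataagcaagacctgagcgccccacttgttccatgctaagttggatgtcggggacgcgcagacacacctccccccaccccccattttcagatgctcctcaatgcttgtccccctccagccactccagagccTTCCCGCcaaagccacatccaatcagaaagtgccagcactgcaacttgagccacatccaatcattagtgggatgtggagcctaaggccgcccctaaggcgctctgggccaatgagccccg
Tuba3b: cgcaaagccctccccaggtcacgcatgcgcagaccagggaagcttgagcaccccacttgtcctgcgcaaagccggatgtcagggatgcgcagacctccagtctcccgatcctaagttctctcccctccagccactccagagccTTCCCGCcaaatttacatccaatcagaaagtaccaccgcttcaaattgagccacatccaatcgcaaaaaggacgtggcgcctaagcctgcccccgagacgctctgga
The match begins 120 bases before the start of Tuba3a and 107 bases before that of Tuba3b. It lies in sequence that the pair shares, so these are not independent matches. The 300-base windows held 12 and 16 CpG. This motif was in 3 of 30 promoters of the set that could be matched (10%), the other being Phf11d, in 2.84% of promoters of other near-silent rows, in 8.86% of those of genes whose mean reached 1 FPKM and in 4.66% of all 27025 promoters in the RefSeq table.

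Gtsf1, which encodes a factor of the piRNA pathway in male germ cells, measured 0.188, 0.257 and 0 FPKM in wild-type LSK, 1.82, 1.80 and 1.53 FPKM in Uhrf1-/- and 0.272 FPKM in LK cells. Trap1a encodes the tumour antigen P1A, known from testis, placenta and tumours, and was the only gene of the set on the X chromosome (139333683 to 139338169). It stood at 0.164, 0.0708 and 0.0630 FPKM in wild-type LSK, at 2.13, 2.09 and 1.44 FPKM in Uhrf1-/- and at 0.208 FPKM in LK cells. In both genes the lowest Uhrf1-/- value was more than 4 times the highest wild-type LSK value. 4930415F15Rik, now named Spata48 for spermatogenesis, had a smaller gap, with 0.262, 0.248 and 0.305 FPKM against 1.05, 0.883 and 1.64 FPKM, and 0.597 FPKM in LK cells.

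Of 50 germline genes listed as targets of silencing by methylation, 42 were near-silent in wild-type LSK cells, and Tuba3a and Tuba3b of these met the rule, where 0.375% of all near-silent rows did. Among the other 40, the highest value in any Uhrf1-/- library was 0.662 FPKM, for Tex101 in replicate 1, and 17 were listed at 0 in all 3 Uhrf1-/- libraries. Of 11 near-silent imprinted genes 0 met the rule, a count from which, at that share of all rows, nothing can be read. In limma's fit over all expressed genes, which called 0.113% of 10608 genes higher and 0.0566% lower, 0 of 6 tested germline genes outside the set passed. Of the 6, 2 had an unadjusted p under 0.05, beside 591 of all 10608 genes. These p-values measure only the spread between these libraries. With the replicate number as a block, Rhox5 rose and Ddx4 fell. Of 38 tested genes of the silencing machinery Uhrf1 alone passed (lower), with and without the block.

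Genes known from the interferon response or its gene clusters were Mx1, Apol9a, Apol9b and Phf11d, which are on the interferon list, and Gm14446 and Gm13277, which were added by role after their values were seen. Cells make such genes in response to type I interferon, and several of their products act against viruses. Mx1 encodes a dynamin-like GTPase that blocks influenza virus, and RefSeq calls it a transcribed pseudogene in this reference strain, whose copy is known to be defective. It stood at 0.406, 0.302 and 0.426 FPKM in wild-type LSK, at 2.69, 2.32 and 2.13 FPKM in Uhrf1-/- and at 0.217 FPKM in LK cells. The mean went from 0.378 ± 0.0667 to 2.38 ± 0.287 FPKM (SD, n = 3 each), and the Uhrf1-/- values varied little.

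Apol9a and Apol9b encode apolipoproteins of the L family and lie 318 kb apart on chromosome 15. Apol9a stood at 0.0511, 0.266 and 0 FPKM in wild-type LSK cells and at 1.43, 1.83 and 1.82 FPKM in Uhrf1-/- cells. Apol9b stood at 0.249, 0.325 and 0.0899 FPKM in wild-type LSK cells and at 3.02, 2.02 and 1.27 FPKM in Uhrf1-/- cells. Both were listed at 0 in LK cells, as was Gm14446. Of the 50-base windows of Apol9b, 51.4% also occur in Apol9a, though none of those of the longest Apol9a transcript occur elsewhere, so the division of reads between the pair is uncertain.

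Phf11d, a PHD finger gene, stood at 0.0964, 0.185 and 0.0573 FPKM in wild-type LSK cells and at 1.55, 1.50 and 0.565 FPKM in Uhrf1-/- cells, with replicate 3 the lowest. Gm14446, now named Ifit1bl1, lies within the cluster of IFIT genes on chromosome 19 and had means of 0.215 ± 0.131 and 0.725 ± 0.0597 FPKM (SD, n = 3 each). Its RefSeq span covers Ifit1, which stood at 2.84, 4.22 and 3.54 FPKM in wild-type LSK and at 9.07, 15.2 and 7.42 FPKM in Uhrf1-/- cells. Gm13277 lies in the type I interferon cluster of chromosome 4, 4.39 kb from Ifnz, and had means of 0.139 ± 0.0849 and 0.657 ± 0.122 FPKM. All of its 50-base windows occur in other genes, 21 in number, so which copy gave these reads cannot be said.

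The promoters of 3 interferon genes are shown because they hold the core of the interferon-stimulated response element. Capitals mark GAAA, any 2 bases and GAAA again, searched on both strands, and here all matches lie on the strand opposite to the one printed. The windows are chr15:77411081-77411330 (minus strand), chr15:77728822-77729071 (plus strand) and chr19:34601969-34602218 (minus strand) of GRCm38.p6, from RefSeq.
Apol9a: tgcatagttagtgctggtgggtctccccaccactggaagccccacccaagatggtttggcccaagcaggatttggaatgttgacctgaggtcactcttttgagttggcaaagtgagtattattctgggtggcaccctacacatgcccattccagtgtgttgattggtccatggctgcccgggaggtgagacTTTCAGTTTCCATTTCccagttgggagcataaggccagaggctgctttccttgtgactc
Apol9b: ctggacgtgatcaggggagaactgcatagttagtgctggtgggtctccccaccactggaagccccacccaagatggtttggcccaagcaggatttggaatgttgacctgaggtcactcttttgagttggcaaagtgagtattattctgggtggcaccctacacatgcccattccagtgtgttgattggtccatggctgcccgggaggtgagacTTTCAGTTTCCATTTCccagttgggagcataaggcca
Gm14446: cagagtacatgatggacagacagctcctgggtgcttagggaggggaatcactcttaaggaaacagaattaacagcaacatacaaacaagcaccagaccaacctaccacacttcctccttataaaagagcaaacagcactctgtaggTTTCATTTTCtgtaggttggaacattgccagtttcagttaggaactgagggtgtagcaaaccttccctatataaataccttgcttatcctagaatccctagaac
In the Apol9 genes 2 overlapping matches form 1 block, beginning 59 bases before the listed start of Apol9a and 37 bases before that of Apol9b, in upstream sequence that the pair shares, so these are not independent matches. The Gm14446 match begins 104 bases before its listed start. Phf11d and Gm13277, also of the interferon group, held no match, and no promoter was available for Mx1. The core was in 3 of 30 matched promoters of the set (10%), in 3.81% of 7736 promoters of other near-silent rows and in 3.49% of all 27025.

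In the interferon list 6 of 48 genes in the table were near-silent in wild-type LSK cells. Of these, 4 met the rule (Mx1, Apol9a, Apol9b and Phf11d), where 0.375% of all near-silent rows did. Gbp6 (0.596, 0.143 and 0.0454 FPKM in Uhrf1-/- replicates 1, 2 and 3) and Ifi44l (listed at 0 throughout) were the remaining ones. Apol9a and Apol9b share sequence, so they do not count as independent genes. Of 39 interferon genes outside the set that were expressed well enough to test, 1 (Zbp1) rose in the fit without the block. With the replicate number as a block 17 rose, where 1.23% of all genes were called higher. The lists of erythroid cells, megakaryocytes and platelets, macrophages, hepatoblasts, endothelium, stroma and lineage markers held 0 members among few near-silent genes: erythroid (7 near-silent), megakaryocyte and platelet (6), macrophage (3), hepatoblast (7), endothelial (3), stroma (9) and lineage markers (3).

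Expressed markers of other blood cell types also moved in limma's fit of the same comparison. Over all genes tested, that fit called 0.113% higher and 0.0566% lower without the block, and 1.23% and 0.83% with it. Of 14 tested genes of megakaryocytes and platelets 4 rose without the block (Cdc42ep5, Itga2b, Tmem40 and Treml1) and 7 with it, and the median log2 difference over the 14 was 1.16, beside 1.14 over the 39 interferon genes and -0.03 over all genes tested. Of 18 tested erythroid genes Car1 and Gata1 rose without the block, and with it 5 rose and 1 fell. Of 6 tested macrophage genes Csf1r, the receptor gene for a macrophage growth factor, fell with and without the block, from between 9.51 and 14.0 FPKM in wild-type to between 2.55 and 3.33 FPKM in Uhrf1-/- LSK cells. The whole megakaryocyte and platelet list summed to between 233.1 and 421.0 FPKM in wild-type LSK, to between 378.4 and 548.4 FPKM in Uhrf1-/- and to 143.0 FPKM in LK cells. The erythroid list summed to between 354.7 and 769.4 FPKM in wild-type LSK, to between 659.0 and 852.1 FPKM in Uhrf1-/- and to 3385 FPKM in LK cells. The sums of both lists overlapped between the genotypes. Their part in the levels of the set was not tested.

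Genes of mast cells, basophils and eosinophils were Ear1, Mcpt8, Il1rl1 and Ms4a2. Il1rl1 encodes ST2, the receptor for interleukin-33, and stood at 0.0591, 0.186 and 0.213 FPKM in wild-type LSK, at 1.16, 1.11 and 1.97 FPKM in Uhrf1-/- and at 1.64 FPKM in LK cells. Ms4a2 encodes the beta chain of the high-affinity IgE receptor and stood at 0.0470, 0.0114 and 0.0278 FPKM in wild-type LSK, at 0.883, 1.17 and 0.841 FPKM in Uhrf1-/- and at 0.848 FPKM in LK cells. For both genes the single LK value fell within the range of the Uhrf1-/- LSK libraries. Mcpt8, a basophil protease, was uneven, with 0.378, 0 and 0.435 FPKM in wild-type LSK, 0.561, 0.694 and 3.81 FPKM in Uhrf1-/- and 2.95 FPKM in LK cells. Only Uhrf1-/- replicate 3 was far above the wild-type values.

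Ear1, an eosinophil ribonuclease gene, showed the opposite order, with 2.26, 4.32 and 0.559 FPKM in Uhrf1-/- replicates 1, 2 and 3, at most 0.0797 FPKM in wild-type LSK and 1.62 FPKM in LK cells. Of its 50-base windows 57.4% occur in other genes of its family, so its level is uncertain. The 29 genes of the mast cell, basophil and eosinophil list summed to between 24.8 and 54.1 FPKM in wild-type LSK, to between 98.3 and 121.6 FPKM in Uhrf1-/- and to 118.3 FPKM in LK cells. Of these genes 19 were near-silent in wild-type LSK cells, and 4 of the 19 are in the set, where 0.375% of all near-silent rows are. Of 8 tested genes of the list outside the set 1 rose without the block (Cpa3) and 3 with it (Cpa3, Ear2 and Il4), where 0.113% and 1.23% of all genes were called higher. Ear2 met the rule itself and was left out only by definition, so its call is not separate from the choice of genes. Cpa3, the mast cell carboxypeptidase gene, carried much of the sum, with 3.61, 4.13 and 9.77 FPKM in wild-type LSK and 42.3, 55.3 and 41.7 FPKM in Uhrf1-/- cells. Without Cpa3 the other 28 genes summed to at most 50.5 FPKM in wild-type LSK, to between 56.6 and 66.3 FPKM in Uhrf1-/- and to 69.0 FPKM in LK cells. These 28 still include Ear1, Mcpt8, Il1rl1, Ms4a2 and Ear2, which met the rule. The gap between the sums of the genotypes is therefore not separate from the choice of genes. The ranges of Prg2, the next most abundant gene in Uhrf1-/- cells, overlapped, with 29.6, 14.8 and 1.98 FPKM against 18.9, 19.6 and 21.2 FPKM. Fcer1a, Mcpt4, Tpsab1 and Tpsb2 of the list were at 0 in all 7 libraries. That includes LK cells, in which Cpa3 stood at 49.3 FPKM. The part of such cells in the levels of the set was not tested. In bulk RNA, fewer or more cells of a type and less or more RNA per cell cannot be told apart.

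The promoters of Ms4a2 and Il1rl1 are shown for AGATAA, a core of GATA factor sites, in capitals on either strand. The windows are chr19:11623720-11623969 (minus strand) and chr1:40429320-40429569 (plus strand, at 1 of its listed starts) of GRCm38.p6, from RefSeq. Il1rl1 spans 40404864 to 40465418, so its window lies inside the gene. Which start these cells use was not tested.
Ms4a2: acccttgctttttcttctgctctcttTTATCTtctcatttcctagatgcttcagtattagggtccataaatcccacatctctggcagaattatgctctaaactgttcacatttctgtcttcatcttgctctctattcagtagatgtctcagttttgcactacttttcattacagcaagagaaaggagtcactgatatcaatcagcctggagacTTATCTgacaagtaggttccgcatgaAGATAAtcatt
Il1rl1: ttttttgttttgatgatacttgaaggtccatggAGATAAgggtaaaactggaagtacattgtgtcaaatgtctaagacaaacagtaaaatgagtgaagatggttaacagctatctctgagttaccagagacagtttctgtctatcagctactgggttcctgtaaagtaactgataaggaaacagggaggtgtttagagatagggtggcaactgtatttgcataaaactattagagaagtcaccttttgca
Ms4a2 had 3 matches, beginning 224, 37 and 11 bases before the start, and Il1rl1 had 1, at 217 bases. The promoters of Ear1 and Mcpt8, from the same group of genes, held no match. Over the set 5 of 30 promoters held the motif (16.7%), beside 14.0% of other near-silent rows and 11.4% of all promoters. The others with a match were Gkn3, 4930415F15Rik and 2610034M16Rik, which are outside this group.

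Lgals7 and Gkn3 are, like Sva, genes of epithelia. Lgals7 encodes galectin-7 of stratified epithelium and stood at 0, 0.231 and 0 FPKM in wild-type LSK, at 0.681, 1.54 and 5.21 FPKM in Uhrf1-/- and at 0.862 FPKM in LK cells. Gkn3, a gastrokine gene of the stomach, stood at 0.0978, 0.0661 and 0 FPKM in wild-type LSK, at 0.652, 0.839 and 3.29 FPKM in Uhrf1-/- and at 0.141 FPKM in LK cells. In both genes replicate 3 carried most of the signal, at 4.69 and 4.41 times the mean of Uhrf1-/- replicates 1 and 2. The lowest value of Lgals7 rests on a deposited count value of 4.56, the smallest behind any Uhrf1-/- value of the set.

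Among the genes of secreted signals, Osm was the most abundant. It encodes oncostatin M, a cytokine of the interleukin-6 family, and stood at 0.0369, 0.209 and 0.0879 FPKM in wild-type LSK, at 1.41, 1.93 and 2.30 FPKM in Uhrf1-/- and at 0.215 FPKM in LK cells. All 3 Uhrf1-/- libraries were well above every wild-type library. Tslp, a cytokine gene of epithelial cells, had means of 0.220 ± 0.0873 and 0.874 ± 0.374 FPKM, and Tsku, a secreted proteoglycan gene, 0.442 ± 0.0883 and 0.685 ± 0.162 FPKM (SD, n = 3 each). Tsku lay near the limit on both sides. The muscle genes were Ckm, which encodes muscle creatine kinase, and Unc45b, a myosin chaperone gene. Unc45b measured 0.424, 0.283 and 0.213 FPKM in wild-type LSK and between 0.548 and 1.39 FPKM in Uhrf1-/- cells. Ckm was steady at 0.743, 0.818 and 0.911 FPKM in Uhrf1-/- cells against at most 0.0693 FPKM in wild-type LSK cells, on deposited count values of 12.5 to 13.6.

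The other 10 protein-coding genes were 2610528J11Rik, Pvrl1, Sardh, Gpx8, Igsf23, Steap1, 2610034M16Rik (now Pdzph1), Zbtb32, Xylt1 and Sh3d19. Their means in Uhrf1-/- cells ran from 0.618 to 1.79 FPKM. 2610528J11Rik, the highest, stood at 0.275, 0.191 and 0.370 FPKM in wild-type LSK, at 1.23, 1.69 and 2.46 FPKM in Uhrf1-/- and at 0.682 FPKM in LK cells. Steap1, a metalloreductase-family membrane protein gene, had the widest relative gap of the 10, with at most 0.174 FPKM in wild-type LSK and 1.20, 0.796 and 0.828 FPKM in Uhrf1-/- cells. Pvrl1, which encodes the adhesion protein nectin-1, reached 2.71 FPKM in Uhrf1-/- replicate 3 and 0.837 and 0.919 FPKM in replicates 1 and 2. Sh3d19, an adaptor protein gene, changed little, at 0.472, 0.365 and 0.414 FPKM against 0.625, 0.591 and 0.639 FPKM.

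The 6 non-coding genes were 9130206I24Rik, 4930444F02Rik, Gm15133, 1110028F11Rik, 9430060I03Rik and A230020J21Rik. 9130206I24Rik has no gene ID in the table, and RefSeq lists the name as a synonym of Foxd2os. It stood at 0.466, 0.209 and 0.330 FPKM in wild-type LSK and at 1.54, 0.919 and 1.94 FPKM in Uhrf1-/- cells. 4930444F02Rik stood at 0.0607, 0.0625 and 0.440 FPKM in wild-type LSK, at 0.860, 0.815 and 2.12 FPKM in Uhrf1-/- and at 1.22 FPKM in LK cells. A few of these overlap expressed genes, and the sources used here do not give the strand setting of the counting, so their reads may belong to the partner. Capn10 shares 36.0% of the windows of 9430060I03Rik and Flvcr1 47.4% of those of A230020J21Rik. Gm15133 lies across Trim12a, which stood at 3.80, 3.25 and 2.52 FPKM in wild-type LSK and at 7.58, 7.26 and 3.86 FPKM in Uhrf1-/- cells.

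**Figure D2:**
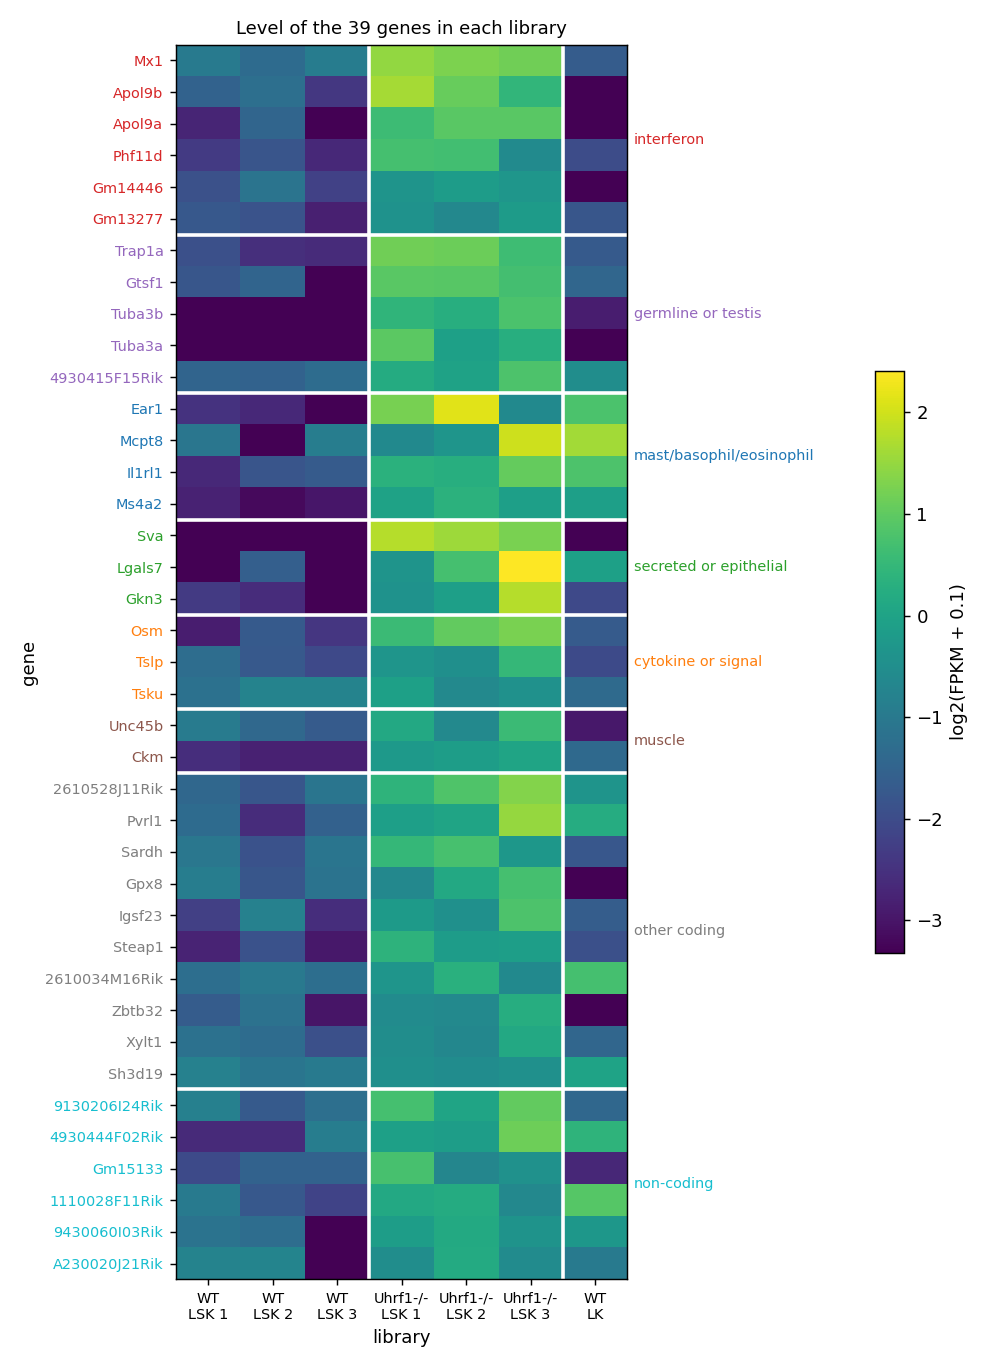
Rows are the 39 genes, grouped and coloured by known role, columns are the 7 libraries, and colour is log2(FPKM + 0.1). Sva, Tuba3a and Tuba3b are darkest in wild-type LSK cells, the interferon rows are also dark in LK cells, and the mast cell, basophil and eosinophil rows are bright there.

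LK cells took no part in the choice of the genes, and their values varied widely over the set. In the 1 LK library 13 of 39 genes (33.3%) were above 0.5 FPKM and 7 were listed at 0. The 7 were Sva, Tuba3a, Apol9a, Apol9b, Gm14446, Gpx8 and Zbtb32. Of 10364 other near-silent rows, 239 (2.31%) were above 0.5 FPKM in LK cells, and 7984 were listed at 0. Many of those rows had no reads at all, and of the 1334 listed above 0 in all 3 wild-type LSK libraries 11.6% were above 0.5 FPKM in LK cells. In the reverse set, which was chosen for expression in wild-type LSK cells, 18 of 43 rows were. With 1 LK library these shares have no error from replicates.

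By role, assigned after the values were seen and with no test, all 4 genes of the mast cell, basophil and eosinophil group were above 0.5 FPKM there, 1 of 5 germline or testis genes (4930415F15Rik) and 0 of 6 interferon genes. Of the others 3 of 6 non-coding genes, 4 of 10 other protein-coding genes, 1 of 3 secreted or epithelial genes, 0 of 3 genes of secreted signals and 0 of 2 muscle genes were above it. The 5 highest LK values in the set were those of Mcpt8 (2.95 FPKM), 1110028F11Rik (1.75 FPKM), Il1rl1 (1.64 FPKM), Ear1 (1.62 FPKM) and 2610034M16Rik (1.54 FPKM). In 11 genes the LK value reached the lowest Uhrf1-/- value, in 20 it was at or below the highest wild-type LSK value, and in 8 it lay between. 1110028F11Rik, 2610034M16Rik and Sh3d19 were higher in LK cells than in any Uhrf1-/- LSK library.

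**Figure D3:**
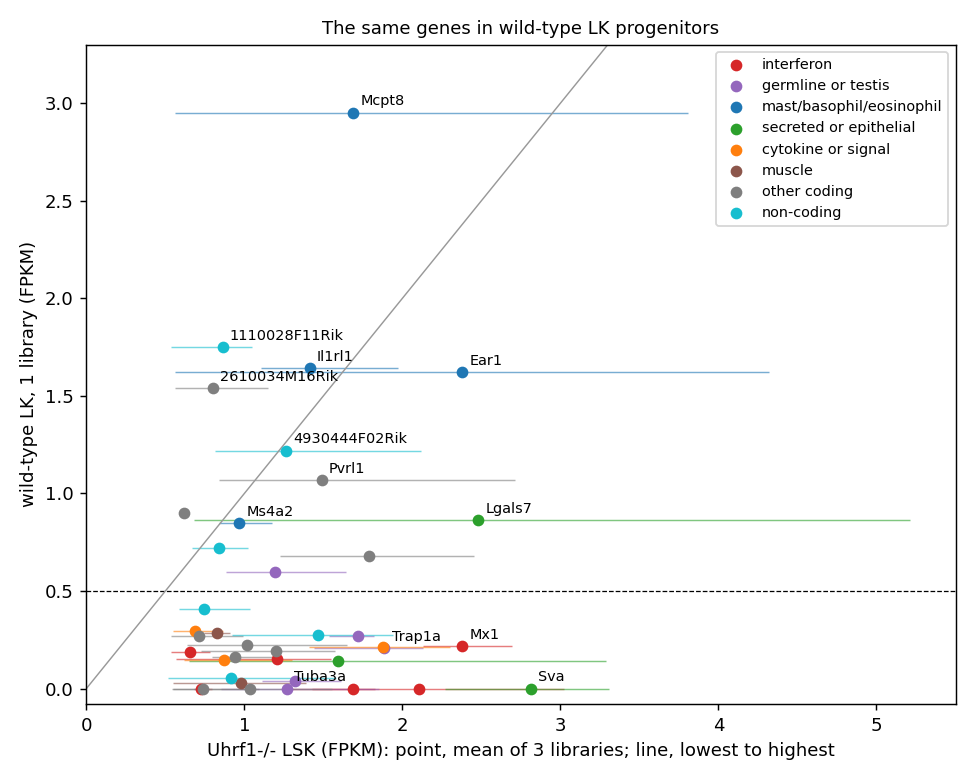
Each point is 1 gene, with its mean over 3 Uhrf1-/- LSK libraries on the x axis (FPKM, line from the lowest to the highest library) and its value in the single wild-type LK library on the y axis (FPKM). The dashed line marks 0.5 FPKM and the grey line equal values: 13 genes lie above the dashed line, among them all 4 of the mast cell, basophil and eosinophil group, and the 6 interferon genes lie below it.

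The Uhrf1-/- libraries did not rank the genes in 1 order. Replicate 3 was the highest in 20 of 39 genes (51.3%), replicate 1 in 10 and replicate 2 in 9. Among 2395 other rows above 0.5 FPKM in every Uhrf1-/- library with a mean of at most 3 FPKM, replicate 3 was the highest in 51.1%, close to the share in the set. Replicate 3 was over 2 times the mean of replicates 1 and 2 in 7 genes: Mcpt8, Lgals7, Gkn3, Pvrl1, 4930444F02Rik, Igsf23 and Gpx8. It was under 0.5 times that mean in Ear1 and Phf11d. The corresponding shares of the 2395 rows were 10.7% and 7.72%.

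The genes whose pattern was most like that of Sva over the 7 libraries were Treml1, Tuba3a, Tuba3b, Mx1 and Trap1a, with Pearson's r of log2(FPKM + 0.1) between 0.981 and 0.992. All but Treml1 belong to the set. Treml1, a receptor gene of platelets, was not silent in wild-type cells, with 4.19, 3.43 and 3.45 FPKM in wild-type LSK, 22.5, 15.8 and 16.4 FPKM in Uhrf1-/- and 3.93 FPKM in LK cells. With 7 libraries and most of the variation between genotypes, these values describe the choice of genes and carry no p-value.

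The set was spread over the genome. Of 38 genes with coordinates in RefSeq, 7 lay on chromosome 7, 4 each on chromosomes 6 and 11, and the others on 15 further chromosomes. No pair lay within 200 kb. RefSeq calls 32 of the genes protein-coding, 5 long non-coding RNA and 1 a transcribed pseudogene. Within 100 kb of the 38 genes lay 208 other genes of the table, of which 95 were expressed well enough to test. In limma's fit without the block 0 of these passed and 11 had an unadjusted p under 0.05, beside 591 of all 10608 genes tested. With the block 5 were higher (Ctsg, Ifit1, Perp, Slfn5 and Slfn8) and 0 lower, where 1.23% and 0.83% of all genes were called. The median log2 difference of these neighbours was 0.12, beside -0.03 over all 10608 genes tested.

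Of these neighbours, Perp, a p53 target gene of cell adhesion, lies 13.1 kb from 4930444F02Rik and stood at 0.587, 1.34 and 1.27 FPKM in wild-type LSK, at 4.11, 4.46 and 1.93 FPKM in Uhrf1-/- and at 12.1 FPKM in LK cells. Ctsg, the cathepsin G gene, lies 14.4 kb from Mcpt8 and stood at 5.87, 3.96 and 11.8 FPKM in wild-type LSK, at 17.1, 20.5 and 19.7 FPKM in Uhrf1-/- and at 128.3 FPKM in LK cells. Slfn5 and Slfn8, schlafen genes, lie 7.94 and 58.7 kb from Unc45b. The ranges of Perp, Ctsg and Ifit1 did not overlap between genotypes, and those of Slfn5 and Slfn8 did. Of all rows above 0 in any LSK library, 4.21% had ranges that did not overlap, with Uhrf1-/- higher. These genes were named because the fit with the block called them on the same values, so this is no separate evidence. Perp and Ctsg were highest in LK cells, where 4930444F02Rik stood at 1.22 FPKM and Mcpt8 at 2.95 FPKM.

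The promoters of the set were poor in CpG, like those of other near-silent genes. The ratio of observed to expected CpG over 300 bases had a median of 0.270 in the 30 promoters that could be matched, 0.256 in 7736 promoters of other near-silent rows, 0.465 in 34 promoters of the reverse set and 0.784 in 8497 promoters of genes whose mean reached 1 FPKM. It reached 0.6 in 6 of 30 promoters (20%), beside 20.4% of the other near-silent rows and 75.3% of the expressed genes. The 6 were Tuba3b, Gpx8, Steap1, Gm15133, Tsku and Sh3d19. Sva, Mcpt8 and Gm14446 had no CpG in the window. Near-silent rows listed above 0 in all wild-type LSK libraries had a median of 0.567.

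**Figure D4:**
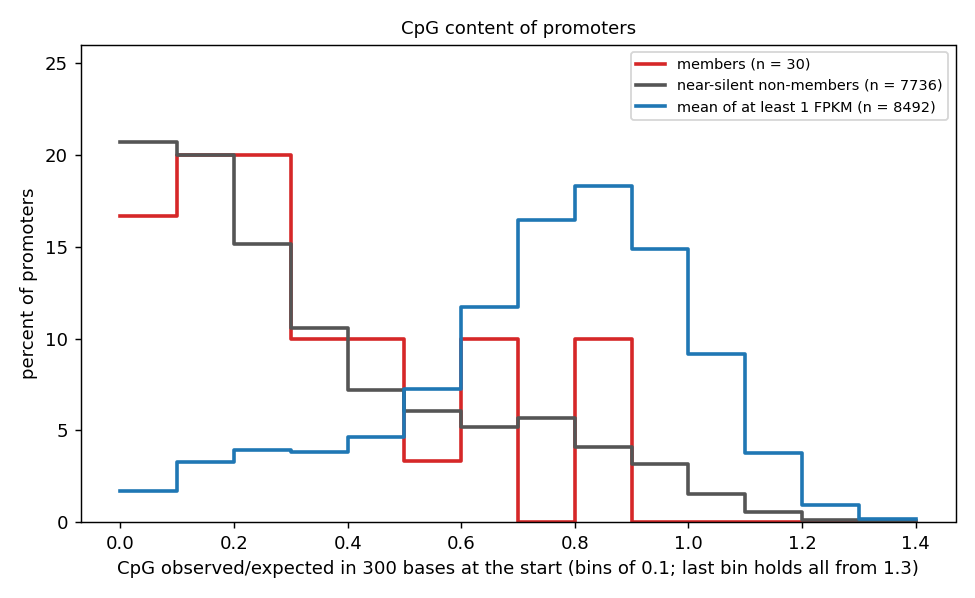
The x axis is the ratio of observed to expected CpG in the 300 bases around the start, in bins of 0.1, and the y axis is the percent of promoters in each set. The 30 promoters of the genes described here (red) follow the other near-silent rows (grey), with most of both below 0.4, while 8492 other genes whose mean reached 1 FPKM (blue) lie mostly above 0.6.

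The depth behind single values was small. The deposited count values behind the lowest Uhrf1-/- library of a gene were below 20 in 15 genes and at least 50 in 8. The largest count value of the set in Uhrf1-/- cells was 309.6, for Il1rl1, and the largest in wild-type LSK cells was 83.0, for Sh3d19. In none of the 39 genes did the count values of the genotypes overlap. Count values and FPKM describe the same libraries, so this follows largely from the rule and is no separate evidence. Of the 39 genes 6 reached a mean of 1 FPKM over the 6 LSK libraries, and they did so through the Uhrf1-/- libraries.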

How the data were processed

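RNA of 7 libraries (3 wild-type LSK, 3 Uhrf1-/- LSK, 1 wild-type LK) was compared, with groups and replicate numbers from the sample titles. The deposited table gives an FPKM and a count value per gene and library. The authors' FPKM were used as deposited. The deposited count values are not whole and were used only as a scaled count signal for depth: 98.2% to 98.6% of low values are whole to 0.02 after division by a step found for each library, so no count model was run. TopHat2 2.0.9, Cufflinks 2.1.1 and mm10 appear, per the submitters' processing notes, with no role stated. The annotation used is not stated there.

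Members were selected in Python 3.11.15. The members and lists were chosen with earlier results of these data known, and roles were assigned after the values were seen. All genes whose mean over LSK reached 1 FPKM were tested with limma 3.58.1 in R 4.3.3 (log2(FPKM + 1), trend, robust, two-sided, Benjamini-Hochberg, threshold 0.05) for the background and for other genes. The fit was tested on simulated data. Named were Sva, the 15 highest members, members on a list, the highest in LK and those at the limit, and further members were added after their values were seen. The deviations of libraries of the same number correlated at 0.349, 0.332 and 0.645, so same-numbered libraries were taken as pairs. That reading comes from the data, not the labels. Wild-type replicate 2 with Uhrf1-/- replicate 1 also reached 0.213. Promoters are the first listed start of each gene in RefSeq (GRCm38.p6), and shared windows were counted in GENCODE M21 transcripts.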

Additional observations from a re-analysis of the deposited data

How the results depend on the processing

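The set and the reverse set were recomputed with other limits, another scaling and fewer libraries. Limits of 0.25 and 1 FPKM gave 36 and 31 genes, of which 14 and 10 were among the 39, so the identity of the members depends on the limit far more than their number. After median-of-ratios scaling 46 genes met the rule and 38 of the 39 were kept. Leaving out libraries can only add rows: without 1 library or both of 1 replicate number the set held 54 to 100 rows, the reverse set 68 to 129, and the genes above 0.5 FPKM in LK cells 16 to 34. Leaving out both libraries of a replicate number was chosen after seeing the data. With a limit of 1 FPKM 8 genes were above the limit in LK cells.

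In limma 12 genes were higher and 6 lower in Uhrf1-/- cells. With no filter on low values 0 were higher and 0 lower, with 967 at an unadjusted p under 0.05. With a mean of at least 0.25 FPKM 19 were higher, and on scaled counts divided by their library sum 21 were higher and 15 lower. With the replicate block, which uses the pairing by number, 131 were higher and 88 lower. Leaving out any 1 library gave 0 to 3 higher and 0 to 1 lower, with 376 to 1504 at an unadjusted p under 0.05. The causes were not tested. The log2 differences of the 39 genes stayed positive in every setting run. The rule put every Uhrf1-/- FPKM of these genes above every wild-type LSK FPKM. Another added constant or fewer libraries therefore could not change the sign, which is no separate evidence. The size of the difference moved by more than 1 SD in all 39 genes with 0.1 added to FPKM in place of 1. On scaled counts divided by their library sum it moved in 21 genes and stayed within 1 SD in 18.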
